A study of Macaca fascicularis with 24 samples.

Results

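Vascular calcification is the deposit of calcium phosphate crystals in the vessel wall, and 10 genes known to hold it back or to drive it were described here in thoracic aortas from cynomolgus monkeys (Macaca fascicularis). The inhibitors were SPP1, ENPP1, MGP, ANKH and TNFRSF11B, and the promoters or bone genes were ALPL, BMP2, BMP4, RUNX2 and IBSP. They are 10 of 11963 genes that have a probe set of their own on the array, and all their 15 probe sets were taken, out of 22215 that are not controls. A probe set is a set of oligonucleotides whose signals are combined into 1 value for a transcript. The genes were chosen by their role and with the measured age differences of SPP1 and ENPP1 and the array-to-array spread of SPP1 known, so the differences between old and young aortas are given as descriptions, without p-values for single members.

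The study compared 4 groups of 6 arrays, 1 sample of thoracic aorta RNA on each. They were old males (mean age 20.0 years), young males (6.6 years), old females (21.2 years) and young females (7.2 years). The labels give no treatment and only these group means of age. Nothing in them says that replicates are separate animals, so p-values measure the spread between samples.

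The array was designed for human transcripts and hybridised with macaque RNA, and how well each probe matches the macaque sequence was not tested. Values are log2(intensity + 16) after quantile normalisation, and the arrays' number limits the precision. The arrays were nearly identical in 3 pairs: 3 and 4 of the young males, 1 and 4 of the old females, and 3 and 4 of the young females. Each pair was averaged and counted as 1 sample under its lower number, which left 6 old males, 5 young males, 5 old females and 5 young females. Of the 21 samples, 6 stood apart from the rest, with a median correlation to the other arrays of 0.81 to 0.83 against 0.88 to 0.93, and are called divergent: old males 2 and 4, young male 1, old females 2 and 6 and young female 3. The actin control's 3′ signal over its 5′ signal was 0.79 to 1.73 (log2) on their arrays, against -0.25 to 1.15 elsewhere. Young male 1 read 10.31 for XIST, the RNA of the inactive X chromosome. The remaining young males were at 6.09 to 7.15, and young females at 11.47 to 12.42. Its RPS4Y1, a Y-linked gene, was at 11.97, against 6.41 to 8.34 in young females. Smooth muscle markers were bright, with a list mean over 9 genes of 11.50 to 14.13 across all samples.

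Crystal growth in the vessel wall is governed by the balance of phosphate and pyrophosphate, by matrix proteins that bind mineral, and by signals that turn smooth muscle cells towards a bone-like state. ENPP1 makes pyrophosphate, which blocks crystal growth, ANKH brings pyrophosphate out of the cell, and ALPL (tissue-nonspecific alkaline phosphatase) breaks it down. MGP (matrix Gla protein) and SPP1 (osteopontin) bind mineral or its building blocks, and TNFRSF11B (osteoprotegerin) is a decoy receptor for RANK ligand. BMP2 and BMP4 are bone morphogenetic proteins, RUNX2 is the master transcription factor of osteoblasts, and IBSP is bone sialoprotein.

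Of the 15 probe sets, 8 had a mean at or above the median of all probe sets and were tested. They belonged to SPP1 (1), ENPP1 (1 of 2), MGP (1), ANKH (1), TNFRSF11B (2) and BMP2 (2). The probe sets of ALPL, BMP4, RUNX2 and IBSP and the other ENPP1 probe set were dimmer and did not enter the test. In old against young males limma called 0 of the 8 at an adjusted p below 0.05, beside 0.018% of all 11108 tested probe sets. Between old and young females it called 0 of 8, beside 0%, and in the average of both sexes 0 of 8, beside 0%. At an unadjusted limma p below 0.05 there were 1 of 8 for males (3.36% of all), 2 of 8 for females (2.84%) and 2 of 8 for the average (4.38%). The choice of genes used these contrasts, so nothing is read from the counts.

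**Figure D1:**
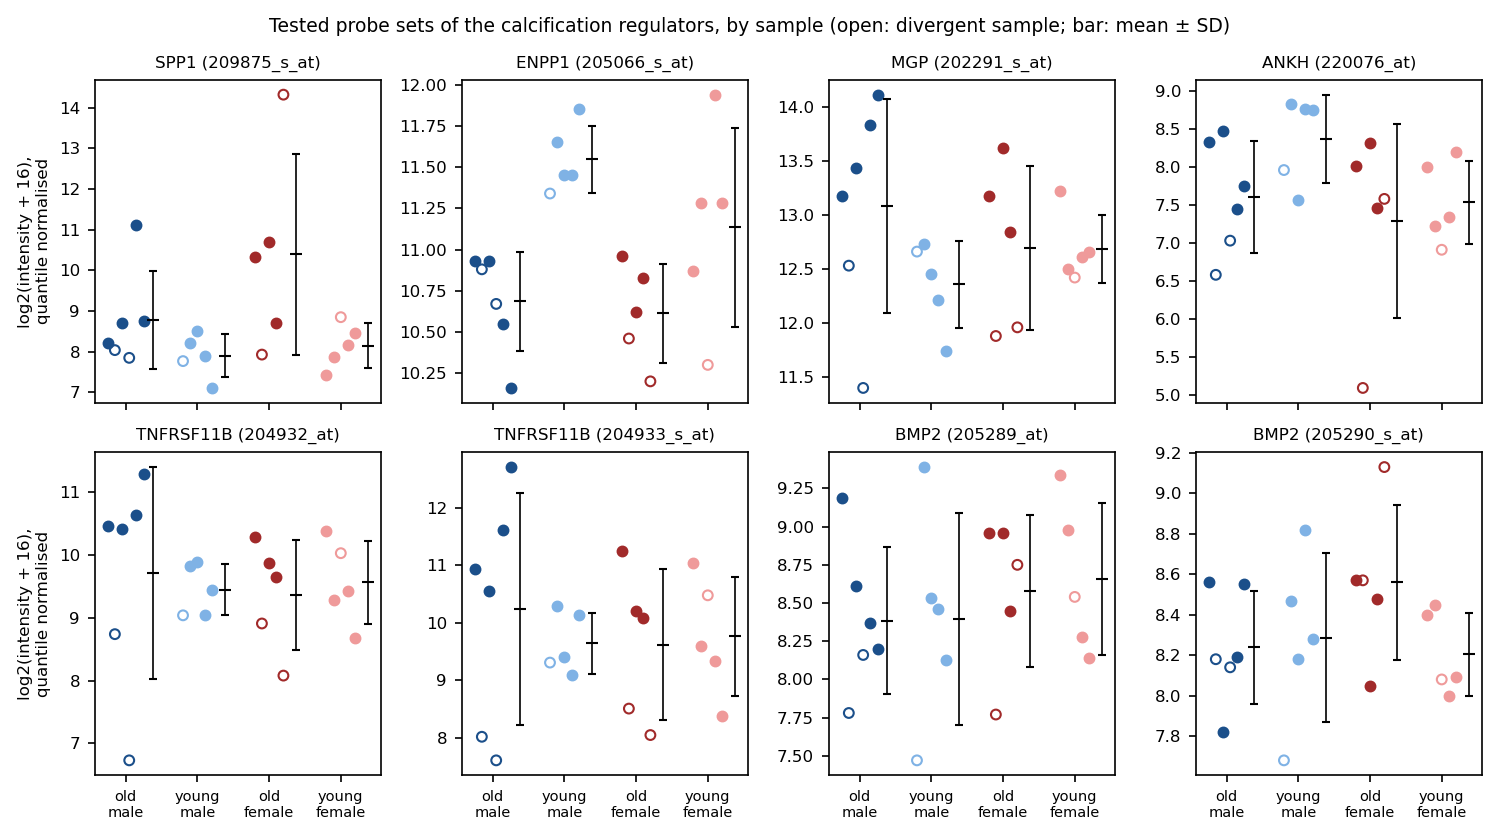
Values of the 8 tested probe sets in 21 samples, as log2(intensity + 16) on the vertical axis, by group; open circles are divergent samples and bars give mean ± SD. ENPP1 lies lower in each of the 6 old males than in each of the 5 young males, and SPP1 has 1 old female at 14.32.

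ENPP1, the pyrophosphate-making enzyme, had lower means in old aortas on its brighter probe set. In old males it had a lowest value of 10.16, a median of 10.77 and a highest value of 10.93. Young males 1, 2, 3, 5 and 6 read 11.34, 11.65, 11.45, 11.45 and 11.85. Every old male thus lay below every young male, and 0.342% of all tested probe sets had such a gap in this direction (0.657% in either). ENPP1 was the 1 member of 8 with such a gap, and in females there was none, beside 0.342% of all in either direction. The log2 difference was -0.86 ± 0.23 (SE), with means of 10.69 ± 0.30 in old males (SD, n = 6) and 11.55 ± 0.20 in young males (n = 5), a level 0.551 times as high. With array weights, 1 of 31 alternatives, limma called ENPP1 and MGP between old and young males, beside 0.225% of all. The main fit called neither, and the other 30 alternatives gave the same count as the main fit. The choice of genes used this contrast, so nothing is read from the call. In a bulk sample, fewer cells of a type and less RNA per cell cannot be told apart.

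The adipocyte marker list had a higher median in old males than in young males. The list mean over 10 genes was 7.05 to 10.26 in old males, with a median of 9.18, and 6.46 to 10.15 in young males, with a median of 7.70. The groups overlapped, also among the samples that were not divergent, where old males 1, 3, 5 and 6 were at 8.76, 7.05, 9.03 and 9.33 and young males 2, 3, 5 and 6 at 6.86, 7.70, 8.0 and 6.46. Young males 6 and 2, the highest for ENPP1 among males, had the lowest list means, while young male 1, a divergent sample, had 10.15 beside an ENPP1 value of 11.34. In this list ADIPOQ, LEP and PLIN1, which define fat cells, were below the filter and the other 7 genes were tested. Other lists also had higher medians in old males than in young males. They were endothelial (9.13 against 8.61), macrophage (7.86 against 7.57), red blood cell (7.15 against 6.91) and chondrocyte and osteoblast (6.94 against 6.67). The lymphocyte medians were 6.80 and 6.79. Smooth muscle (13.40 against 13.45), fibroblast (11.89 against 12.02) and osteoclast (7.52 against 7.61) medians were lower. The part of any of these cells in the ENPP1 values was not tested.

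In females the ENPP1 difference ran the same way but the groups overlapped. Old females 1, 2, 3, 5 and 6 read 10.96, 10.46, 10.62, 10.83 and 10.20. Young females 1, 2, 3, 5 and 6 read 10.87, 11.28, 10.30, 11.94 and 11.28. The overlap came from young females 1 and 3, of which 3 is a divergent sample. The log2 difference was -0.52 ± 0.24, with means of 10.61 ± 0.30 and 11.13 ± 0.60 in old and young females (SD, n = 5 each). Averaged over both sexes it was -0.69 ± 0.16, and -0.75 ± 0.16 without the 6 divergent samples.

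The second ENPP1 probe set did not follow the first. It was dim, at 4.26 to 6.71 over all samples, and its log2 difference was 0.07 ± 0.47 in males and 0.41 ± 0.49 in females, old over young. Over the 15 samples that were not divergent the correlation between the ENPP1 probe sets was -0.04 (Pearson's r), against 0.95 for the TNFRSF11B pair. The ENPP1 values above thus come from 1 probe set.

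The probe sets most like the brighter ENPP1 probe set over the 21 samples were 3 of RGS5 (r = 0.87, 0.83 and 0.83; Spearman's rho 0.88, 0.83 and 0.80), 1 of SMARCA2 (r = 0.78, rho 0.85) and 1 of MMP16 (r = 0.76, rho 0.82). They were picked as the highest of all tested probe sets, so no p-value is given. RGS5 is a regulator of G protein signalling known from pericytes and arterial smooth muscle, SMARCA2 a chromatin remodelling ATPase and MMP16 a membrane-bound metalloproteinase. Without young female 5 and young male 6, the samples farthest from the ENPP1 median, r was 0.88, 0.82 and 0.80 for RGS5, 0.76 for SMARCA2 and 0.72 for MMP16. The RGS5 probe sets had log2 age differences of -0.90 ± 0.30, -0.62 ± 0.28 and -0.91 ± 0.39 averaged over both sexes. They were picked for following ENPP1 in the same samples, so their lower means in old aortas are no separate result.

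ANKH, the partner of ENPP1 in pyrophosphate supply, also had lower means in old aortas. Old males had a lowest value of 6.58, a median of 7.60 and a highest value of 8.48. Young males 1, 2, 3, 5 and 6 read 7.96, 8.83, 7.56, 8.77 and 8.75. Of the young males, 3 lay above all old males, and the groups overlapped in the other 2. The log2 difference was -0.77 ± 0.48 in males.

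In females ANKH was at 8.01, 5.09, 8.31, 7.46 and 7.58 in old females 1, 2, 3, 5 and 6. Young females 1, 2, 3, 5 and 6 read 8.0, 7.22, 6.91, 7.34 and 8.20. Old female 2, a divergent sample, lay far below all others. The log2 difference was -0.25 ± 0.50, and without old female 2 it was 0.30, so its sign rested on that sample. Without all 6 divergent samples the value was -0.47 ± 0.33 in males and 0.24 ± 0.36 in females.

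ALPL, which removes pyrophosphate, lay below the filter and showed close means in all groups: 7.63 ± 0.45 in old males (n = 6), 7.56 ± 0.41 in young males, 7.51 ± 0.56 in old females and 7.36 ± 0.16 in young females (SD, n = 5 each). Its log2 age difference was 0.06 ± 0.29 in males and 0.15 ± 0.30 in females.

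**Figure D2:**
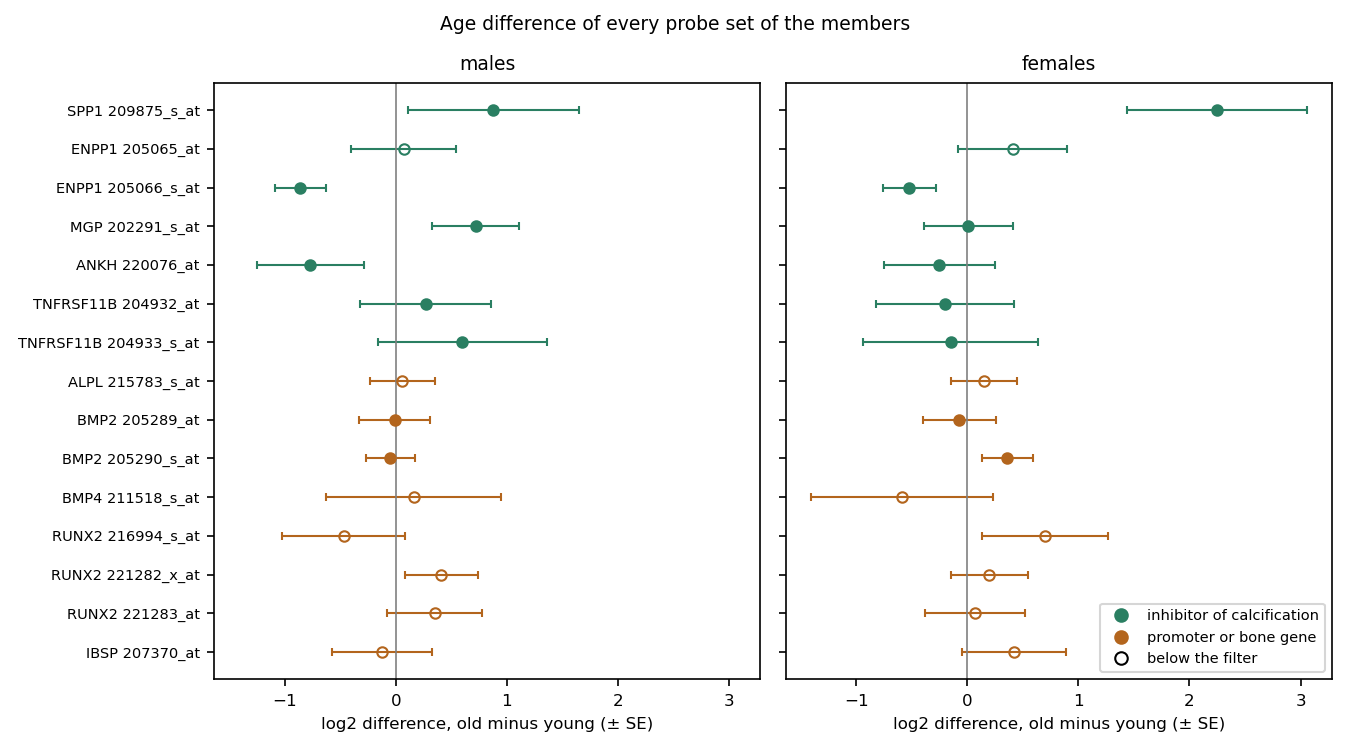
Log2 difference of old minus young (horizontal axis, ± SE) for all 15 probe sets in males (left) and females (right), inhibitors in green and promoters or bone genes in brown; open circles lie below the filter. The brighter ENPP1 probe set lies at -0.86 and -0.52 and SPP1 at 0.88 and 2.25, while both BMP2 probe sets lie between -0.07 and 0.36.

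SPP1 and TNFRSF11B both spread widely between samples of a group. The within-group SD of SPP1, 1.41, ranked 105 among 11108 tested probe sets, of which 0.945% had an SD as large, where the median probe set had 0.46. The brighter TNFRSF11B probe set had nearly the same SD, 1.39 (rank 115, 1.04%), and the other had 1.08 (rank 358, 3.22%). Without the 6 divergent samples the SD was 0.90 for SPP1 (rank 216, 1.94%) and 0.86 for the brighter TNFRSF11B probe set (rank 262, 2.36%), beside a median of 0.31 over all. SPP1 was chosen with its spread known, so nothing is read from its rank. In old females 1, 2, 3, 5 and 6 SPP1 read 10.34, 7.93, 10.71, 8.70 and 14.32. Young females 1, 2, 3, 5 and 6 read 7.43, 7.87, 8.85, 8.16 and 8.45. Old females 1, 3 and 6 lay above all young females, and old females 2 and 5 lay within their range.

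In males SPP1 had a lowest value of 7.85, a median of 8.46 and a highest value of 11.11 in old animals. Young males 1, 2, 3, 5 and 6 read 7.77, 8.21, 8.52, 7.90 and 7.11. Old male 5 stood far above the young males, while old males 3 and 6, at 8.70 and 8.76, lay just above the highest of them and the other old males lay among them. The SD was 1.20 in old males and 0.53 in young males, and 2.47 in old females and 0.54 in young females.

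On the deposited intensity scale, old female 6 read 27562.3 for SPP1. The near-identical arrays of old females 1 and 4 read 1304.9 and 1329, old female 3 read 1773.3 and old male 5 read 2346.7. The remaining old animals lay at 263.1 to 426.6, and all 12 young arrays at 103.2 to 494.4. Of the 5 high arrays, 2 are the near-identical pair.

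**Figure D3:**
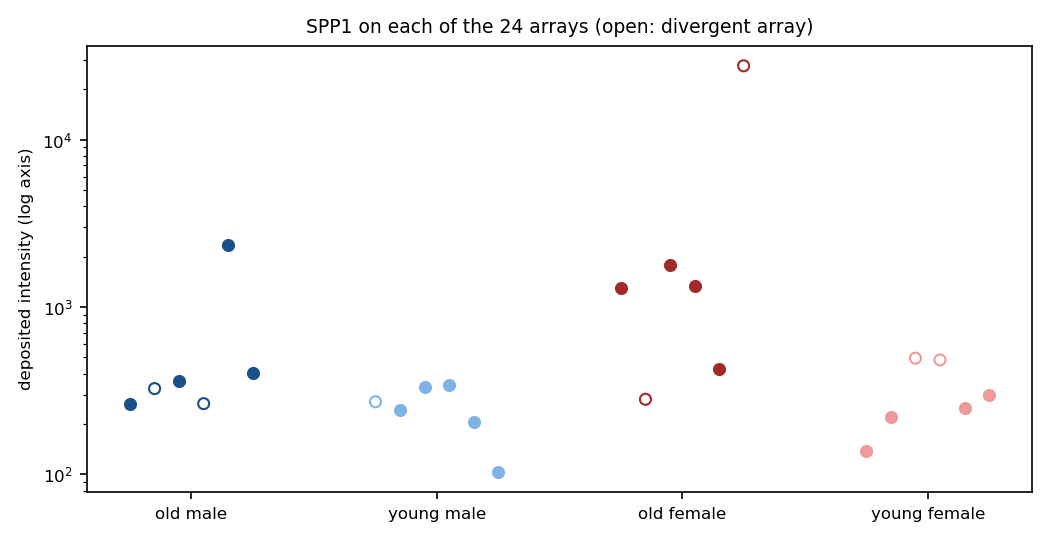
Deposited SPP1 intensity (log axis) on each of the 24 arrays by group; open circles are divergent arrays. The 12 young arrays lie at 103.2 to 494.4, while 5 old arrays lie at 1304.9 to 27562.3.

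The log2 difference of SPP1, old over young, was 2.25 ± 0.81 in females, with means of 10.40 ± 2.47 and 8.15 ± 0.54 in old and young females (SD, n = 5 each). In males it was 0.88 ± 0.77, with means of 8.78 ± 1.20 in old males (n = 6) and 7.90 ± 0.53 in young males (n = 5). Without old female 6 the female difference was 1.27, and without old male 5 the male difference was 0.41. Averaged over both sexes it was 1.56 ± 0.56, and 1.60 ± 0.41 without the 6 divergent samples. In those 15 samples old females (8.70 to 10.71) lay above all young females (7.43 to 8.45), a gap that 1.56% of all tested probe sets showed in this direction.

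SPP1 is also a product of macrophages, so their markers were set beside it. The macrophage list mean over 9 of 10 listed genes was 8.97 in old female 6 and 9.10 in old female 3, against 7.25 to 7.96 in the other old females. Over whole groups it was 7.24 to 8.18 in old males, 7.37 to 8.17 in young males, 7.25 to 9.10 in old females and 8.10 to 8.56 in young females. Old female 1 and old male 5, which also read high for SPP1, were at 7.95 and 7.89. Old female 6 moreover had the lowest smooth muscle list mean, 11.50, and the highest lymphocyte list mean, 8.68. The osteoclast list, whose cells also make SPP1, had means of 7.59 to 8.15 in old females and 7.39 to 7.98 in young females. Of the genes averaged, 6 of 9 macrophage, 3 of 9 lymphocyte and 3 of 6 osteoclast genes were tested, and the others lay below the filter. The part of these cells in the SPP1 values was not tested.

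**Figure D4:**
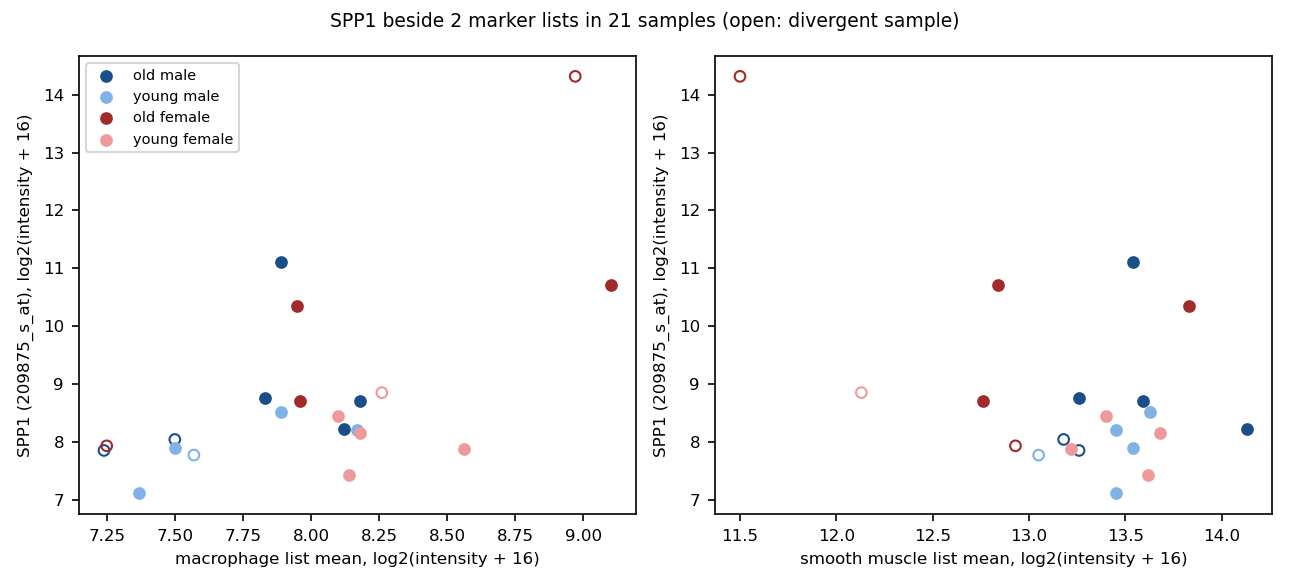
SPP1 (vertical axis) against the list mean of macrophage markers (left) and smooth muscle markers (right) in 21 samples, both as log2(intensity + 16); open circles are divergent samples. Old female 6 has the highest SPP1, at 14.32, beside a macrophage list mean of 8.97 and the lowest smooth muscle list mean, 11.50.

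The probe sets most like SPP1 over the 21 samples were 1 of an immunoglobulin kappa variable sequence (r = 0.76, rho 0.46) and those of IGLL5 (r = 0.75, rho 0.27), CXCR4 (r = 0.74, rho 0.28), BTG1 (r = 0.74, rho 0.40) and TBC1D9 (r = 0.73, rho 0.47). IGLL5 is an immunoglobulin lambda-like gene, CXCR4 is a chemokine receptor of leukocytes and BTG1 an antiproliferative gene. Without old female 6 and old male 5 their r was 0.15, -0.01, 0.06, 0.15 and 0.34. The likeness rests on those samples, and no p-value is given for a choice of the highest values.

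IBSP, a bone matrix protein of the same family as SPP1, was below the filter, with means of 7.31 ± 0.99 in old males (n = 6), 7.44 ± 0.67 in young males, 7.22 ± 0.43 in old females and 6.81 ± 0.83 in young females (SD, n = 5 each). In old female 6, the highest for SPP1, it read 7.74. IBSP reached 8.89 in old male 2 and 8.18 in young male 1, where SPP1 was 8.04 and 7.77. Both of these samples and old female 6 are divergent. Without the divergent samples IBSP reached 7.27 in old males and 7.68 in young males.

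MGP, the vitamin K-dependent mineral inhibitor of smooth muscle, was bright in every sample. Old males had a lowest value of 11.40, a median of 13.30 and a highest value of 14.11. Young males 1, 2, 3, 5 and 6 read 12.66, 12.73, 12.45, 12.21 and 11.74. The groups overlapped through old males 2 and 4, both divergent, at 12.53 and 11.40, while the other 4 old males lay above all young males. Old males exceeded young males by 0.72 ± 0.39 on the log2 scale, and by 1.35 ± 0.24 without the 6 divergent samples.

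In females MGP read 13.17, 11.88, 13.62, 12.84 and 11.96 in old females 1, 2, 3, 5 and 6. Young females 1, 2, 3, 5 and 6 read 13.22, 12.50, 12.42, 12.61 and 12.66. The old females spread to both sides of the young ones, and the 2 lowest were the divergent samples. Old minus young was 0.01 ± 0.40 (log2), and 0.46 ± 0.26 without the divergent samples.

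TNFRSF11B, the osteoprotegerin gene, had a similar layout on both its probe sets. On the brighter one old males had a lowest value of 7.61, a median of 10.75 and a highest value of 12.71. Young males 1, 2, 3, 5 and 6 read 9.31, 10.30, 9.40, 9.10 and 10.13. Old males 2 and 4 were again the low ones, at 8.02 and 7.61, and the other 4 lay above all young males. The difference was 0.60 ± 0.76 (log2), and 1.73 ± 0.53 without the divergent samples. It was 0.10 without old male 6 and 1.12 without old male 4. On the second probe set it was 0.27 ± 0.59, 1.15 ± 0.31 without them and -0.05 without old male 6.

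In females TNFRSF11B on the brighter probe set read 11.25, 8.51, 10.21, 10.08 and 8.05 in old females 1, 2, 3, 5 and 6. Young females 1, 2, 3, 5 and 6 read 11.05, 9.60, 10.48, 9.34 and 8.38. The ranges lay on top of each other. Old minus young was -0.15 ± 0.79 (log2), and 0.92 ± 0.57 without the divergent samples, so its sign depended on them. The second probe set gave -0.20 ± 0.62, and 0.49 ± 0.34 without them.

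Without the 6 divergent samples, 4 old and 4 young males remained. Of the 8 tested probe sets, 3 were higher in every old male than in every young male, beside 2.9% of all tested probe sets. These were MGP and both of TNFRSF11B, and the TNFRSF11B pair, at r = 0.95, is 1 gene. ENPP1 was lower in every old male, beside 2.42%. In females SPP1 was higher in every old sample, 1 of 8 beside 1.56%, and 0 of 8 were lower, beside 2%. Since the choice of genes used these age contrasts, nothing is read from these counts. Of the probe sets below the filter, 1 of RUNX2 was also higher in every such old female. It read 5.43 to 5.79 in 3 old females against 5.02 to 5.32 in 4 young females. The other RUNX2 probe sets overlapped, with log2 differences of 0.06 and -0.25. No share over all probe sets below the filter was computed, so nothing is read from this dim probe set. The divergent samples were named by their correlation with all other arrays, not by these genes. The limit for naming them was chosen with earlier results of these data known.

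Across the 15 samples that were not divergent, ENPP1 and MGP ran opposite to each other, at Pearson's r = -0.89 and Spearman's rho -0.86 (n = 15). Without young female 5 and young male 6, the samples farthest from the ENPP1 median, r was -0.91. Over all 15 with each group's mean taken off it was -0.68. TNFRSF11B and MGP ran together, at r = 0.75 and rho 0.78, at 0.78 without old male 6 and young male 6, and at 0.52 with group means taken off. ENPP1 and TNFRSF11B were at r = -0.71 and rho -0.66, and at -0.44 with group means taken off. In the 6 divergent samples the ENPP1 and MGP pair had r = 0.46, the opposite sign. These 3 were the pairs with the smallest permutation p of 45 pairs among the 10 genes, all points share the same arrays and normalisation, and the values are given as descriptions.

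**Figure D5:**
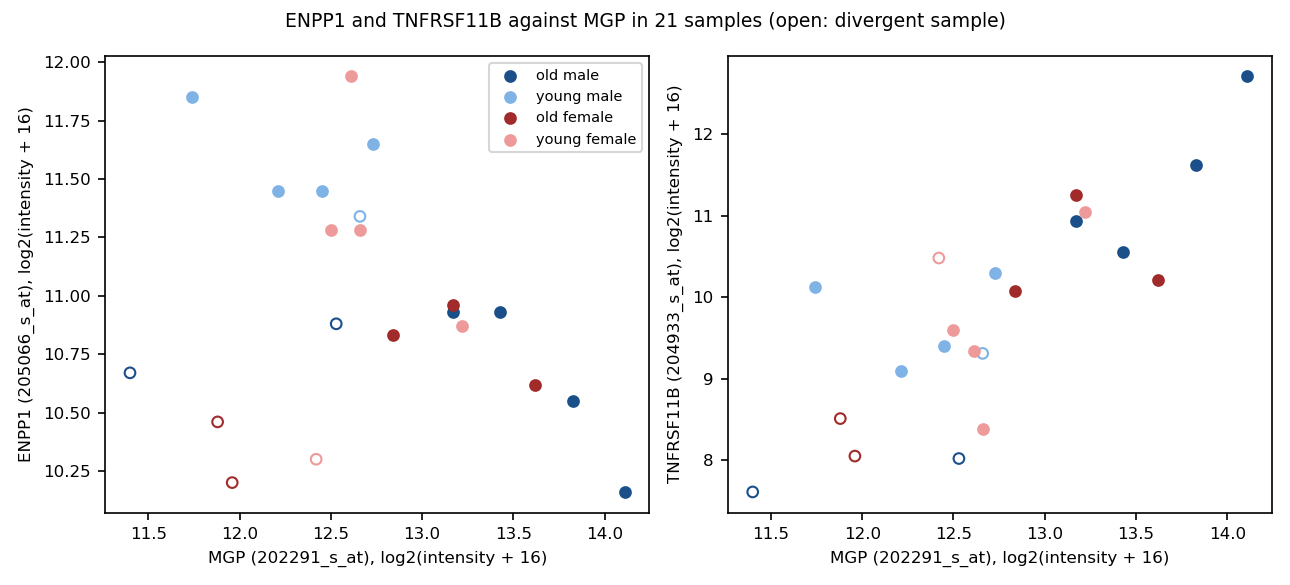
ENPP1 (left) and TNFRSF11B (right) against MGP in 21 samples, as log2(intensity + 16), coloured by group; open circles are divergent samples. Among the filled points ENPP1 is lower (r = -0.89, n = 15) and TNFRSF11B higher (r = 0.75) where MGP is higher, while the open points of ENPP1 do not follow the filled ones.

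Old males 5 and 6 were at the end of this range, with MGP at 13.83 and 14.11, the brighter TNFRSF11B probe set at 11.62 and 12.71 and BMP4 at 8.79 and 9.63. Among the males, old males 5 and 6 read highest for 2 genes of the chondrocyte and osteoblast marker list. COMP, cartilage oligomeric matrix protein, was at 10.56 and 11.28 in them, against 5.26 to 8.53 in the other old males and 7.21 to 8.10 in young males. COL10A1, the collagen of hypertrophic cartilage, was at 8.62 and 9.19, against 5.6 to 7.97 in the other old males and 4.93 to 5.64 in young males. The whole list, 8 of 10 genes, had means of 6.39 to 7.56 in old males, 6.48 to 6.86 in young males, 6.48 to 6.86 in old females and 6.15 to 6.85 in young females. Without COMP and COL10A1, which were picked after their values were seen, the list mean of the other 6 genes was 6.88 and 6.65 in old males 5 and 6, within the 6.43 to 7.07 of young males. The part of such cells in the member values was not tested.

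BMP2, a ligand that drives bone formation, had close means in old and young males. On its first probe set old males had a lowest value of 7.78, a median of 8.28 and a highest value of 9.19, and young males 1, 2, 3, 5 and 6 read 7.47, 9.39, 8.53, 8.46 and 8.13. The groups covered nearly the same range. Old minus young was -0.01 ± 0.32 (log2) in males and -0.07 ± 0.33 in females. On the second probe set it was -0.05 ± 0.22 and 0.36 ± 0.23.

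BMP4 lay below the filter on average and spread widely. Its means were 7.55 ± 1.81 in old males (n = 6), 7.39 ± 1.19 in young males, 7.01 ± 0.99 in old females and 7.59 ± 1.52 in young females (SD, n = 5 each). Old males ran from 5.15 to 9.63. The log2 age difference was 0.16 ± 0.79 in males and -0.59 ± 0.82 in females, and 1.46 ± 0.57 and -0.70 ± 0.61 without the divergent samples.

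RUNX2 was below the filter on all 3 of its probe sets. In males the log2 age differences were -0.47 ± 0.55, 0.41 ± 0.33 and 0.35 ± 0.43, and in females 0.70 ± 0.57, 0.20 ± 0.35 and 0.07 ± 0.45. Over 15 samples the correlations between them were -0.01, 0.42 and -0.14.

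Inhibitors and promoters had members on both sides of 0. Of the 6 tested inhibitor probe sets, 4 were higher and 2 lower on average in old males, at a median log2 difference of 0.43, beside -0.01 over all tested probe sets. In females 2 were higher and 4 lower, with a median of -0.18, beside -0.03 over all. Both promoter probe sets that were tested belonged to BMP2, at a median of -0.03 in males and 0.14 in females, so the comparison of roles rests on 1 promoter gene. Over all 15 probe sets, dim ones included, 5 of 7 inhibitor and 4 of 8 promoter probe sets were higher in old males, and 3 of 7 and 6 of 8 in old females.

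The difference of the 2 age effects, male minus female, was 0.71 ± 0.56 for MGP, -1.37 ± 1.12 for SPP1 and -0.34 ± 0.33 for ENPP1 on its brighter probe set. Limma called 0 of the 8 tested members and 0% of all tested probe sets, and 0 of the 8 had an unadjusted p below 0.05, beside 1.97% of all. Both age effects were used in the choice of genes, so nothing is read from these counts.

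Males and females were compared at each age and averaged over both ages. The choice of genes did not use these contrasts, but for SPP1 it used age differences and spread from the same samples. Limma called 0 of 8 members in young animals, 0 of 8 in old animals and 0 of 8 averaged, beside 0.027% of all tested probe sets in each. At an unadjusted limma p below 0.05 there were 0, 1 and 0 members, beside 1.39%, 4.09% and 2.88% of all. The single one was SPP1 in old animals, at 8.78 ± 1.20 in old males (n = 6) and 10.40 ± 2.47 in old females (n = 5), a log2 difference of -1.62 ± 0.77 (limma adjusted p = 0.999). Without old female 6 it was -0.64. These SPP1 values were known when the genes were chosen, so nothing is read from this difference. No tested member separated males from females completely, beside 0.63% of all tested probe sets in young animals and 0.288% in old animals (0.171% with all males lower). ANKH had means of 8.37 ± 0.58 in young males and 7.54 ± 0.54 in young females, a log2 difference of 0.84 with a 95% interval from -0.19 to 1.87. For MGP averaged over both ages the interval ran from -0.55 to 0.61, and for the brighter ENPP1 probe set from -0.10 to 0.59.

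Around these genes, 74 others of the mineralisation pathway were listed, of which 65 were on the array and 42 were tested, each by its brightest probe set. Limma called 0 of the 42 in each age contrast. At an unadjusted p below 0.05 there were 0 between the male groups, 3 between the female groups and 4 (9.52%) in the average of both, beside 3.36%, 2.84% and 4.38% of all. Averaged over both sexes, 14 had a higher and 28 a lower mean in old animals, with a median of -0.07, beside -0.02 over all tested probe sets.

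Among receptors and proteases of osteopontin, 1 of 7 tested genes had a higher and 6 a lower mean averaged over both sexes. The smallest p belonged to ITGB1, the beta 1 integrin chain, and ITGAV, the alpha V chain that binds osteopontin. ITGB1 averaged 13.74 ± 0.20 in old males (n = 6) and 13.90 ± 0.12 in young males, 13.60 ± 0.21 in old females and 13.91 ± 0.09 in young females (SD, n = 5 each). Its log2 age difference averaged over both sexes was -0.23 ± 0.08 and that of ITGAV -0.38 ± 0.15, both at a limma adjusted p of 0.985. The genes thus had lower means in the same direction in both sexes and did not pass.

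Mineral-binding matrix proteins and the vitamin K cycle had lower means in 5 of 5 tested genes averaged over both sexes, but in 4 of 5 for males and 3 of 5 for females. The average was led by SPARC (osteonectin) at -0.46 ± 0.21 and VKORC1, the vitamin K recycling enzyme on which MGP depends, at -0.23 ± 0.23. Among BMP ligands, receptors, antagonists and SMADs 3 of 11 had a higher and 8 a lower mean (5 higher in males and 2 in females), led by the antagonist CHRD (-0.52 ± 0.26) and the receptor BMPR2 (-0.28 ± 0.15). CHRD was at 8.13 ± 1.20 in old females and 9.01 ± 0.30 in young females (SD, n = 5 each). None of these passed the threshold.

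Averaged over both sexes, phosphate and pyrophosphate handling had 3 of 6 tested genes with a higher mean (2 in males and 5 in females), with the inorganic pyrophosphatase PPA1 at 0.58 ± 0.37 and the nucleotide-degrading enzyme ENTPD1 at -0.13 ± 0.13. Bone and cartilage transcription factors had 1 of 4 higher, with TWIST1 at -0.27 ± 0.18 and ATF4 at -0.16 ± 0.12. The RANK ligand system, whose decoy receptor is TNFRSF11B, had 1 of 2 higher (2 in males and 0 in females), TNFSF10 at 0.10 ± 0.29, with NFATC1 at -0.06 ± 0.18. Wnt and hormone regulators had 5 of 7 higher in the average, 6 of 7 in males and 2 of 7 in females, with the Wnt inhibitor DKK1 at 0.39 ± 0.44 and the co-receptor LRP6 at -0.36 ± 0.21. None of them passed.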

How the data were processed

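The deposited table holds an intensity on a linear scale for each of 22277 probe sets, and every array has a trimmed mean of 500.1 to 500.2. How the authors summarised probes into these intensities is not stated in the labels. RNA extraction used phenol and chloroform and labelling used biotin, per the labels' protocols. Gene symbols came from the platform annotation. After 62 control probe sets were left out, log2(intensity + 16) was quantile normalised over 24 arrays. Adding 16 makes differences of dim probe sets smaller. Near-identical arrays (SD of the log2 difference under 0.4 and correlation of deviations over 0.65) were averaged. The 11108 probe sets with a mean at or above the median were tested with limma 3.58.1 in R 4.3.3, with 4 group means in 1 fit, an intensity trend and Benjamini-Hochberg adjustment at 0.05. SE come from this model. Members below the filter were read from the same fit with no filter. Divergent samples had a median correlation under 0.85. Correlations between members were computed in Python 3.11.15 with numpy 2.4.6 and ranked with 100000 permutations.

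The members, the gene lists and the limits for near-identical and divergent arrays were chosen with earlier results of these data known. Named genes were the members, the 2 genes of each pathway list with the smallest p in the average age contrast and the 5 probe sets most like SPP1 and ENPP1. Marker list means took the brightest probe set of each gene. COMP and COL10A1 were singled out after their values were seen. The model was tested on simulated data. The labels do not say whether a replicate number marks a shared animal or day, and the main fit used no pairing. Of 30 same-numbered pairs from different groups, 14 had deviations correlated over 0.1. The mean correlation was 0.06 for the same number and 0 for other numbers. Alternatives were another normalisation, other pseudocounts, no filter, 24 arrays, a replicate block, the actin ratio as a covariate, array weights and leaving out samples.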

Additional observations from a re-analysis of the deposited data

Results flagged for a closer look

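A sample far from the others of its group was found in 4 of 60 groups of samples examined over the 15 probe sets, and chance flags about 1 in 20. SPP1 read 11.11 in old male 5, with the next old male at 8.76. ANKH read 5.09 in old female 2, a divergent sample, with the next at 7.46. BMP4, below the filter, read 5.29 in young male 6, with the next at 7.66. The first RUNX2 probe set, below the filter, read 8.20 in old male 4, a divergent sample, with the next at 5.99. The SPP1 value of 14.32 in old female 6 was not among them, because the other old females were themselves spread from 7.93 to 10.71.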

How the results depend on the processing

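The count of members called was 0 in all 7 contrasts under 31 alternatives each, except with array weights in old against young males, where 2 were called, ENPP1 (-0.95 ± 0.18) and MGP (1.26 ± 0.25), beside 0.225% of all tested probe sets. The cause was not tested. The unadjusted count in that contrast ran from 1 to 6. The SPP1 difference averaged over both sexes kept its direction, at 1.08 (without old female 6) to 1.87 when 1 sample was left out and 1.45 to 1.75 otherwise, and the ENPP1 difference likewise, at -0.79 to -0.59 and -0.78 to -0.58. The within-group SD of SPP1 was 0.90 without the 6 divergent samples and 0.96 without old female 6. With the replicate number as a block, SPP1 was at 1.66 and ENPP1 at -0.69, and no call changed. Without young male 1 the ENPP1 difference in males was -0.91 and that of MGP 0.79. The averaged MGP difference of 0.36 was 0.91 and that of TNFRSF11B on its brighter probe set, 0.22, was 1.32 without the divergent samples, where fewer samples enter. Of 2790 single member values recomputed, 185 changed sign and 1 moved by over 1 SD. The 2790 include fits that left out a sample of a group outside the contrast, so no share is read from them. Dim probe sets (ALPL, BMP4, RUNX2, IBSP) are limited by signal.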
